A study of Mus musculus with 12 samples.

Results

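The nuclear genes of the mitochondrial respiratory chain and ATP synthase were followed in cultured mouse bone-marrow-derived dendritic cells (BMDCs), antigen-presenting cells grown from marrow progenitors. Members were all genes whose symbol in the authors' files begins with Ndufa, Ndufb, Ndufc, Ndufs, Ndufv, Sdh, Uqcr, Cox4i, Cox5, Cox6, Cox7, Cox8 or Atp5. Genes beginning with Ndufaf and symbols containing -ps were left out. The rule reads symbols only, but it was set with earlier results of these data known. The rule found 89 of 37991 genes, and 85 of them were among the 18981 genes that passed a filter on low counts. By role the 89 comprised 36 subunits of complex I, 4 of complex II, 8 of complex III, 11 ubiquitous and 8 tissue-restricted subunits of complex IV, and 15 of ATP synthase. The other 7 share a symbol prefix but are not subunits (Sdhaf1, Sdhaf2, Sdhaf3, Sdhaf4, Cox7a2l, Atp5s and Atp5sl). The 4 members without a test were Ndufa4l2, Cox7b2, Cox8b and Cox8c, and the filter kept 4 of the 8 tissue-restricted isoforms.

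RNA was sequenced from 4 groups of 3 libraries, all C57BL/6 per the labels. The groups were cells labelled knockout (KO) of Vav1, Vav2 and Vav3 given curdlan for 3 hours (libraries 2, 4 and 5), unstimulated KO-labelled cells (1, 2 and 5), wild-type (WT) cells given curdlan (1, 2 and 4) and unstimulated WT cells (1, 2 and 4). Curdlan, a beta-glucan particle, is recognised by Dectin-1, and Vav proteins signal downstream of receptors coupled to the kinase Syk. The labels do not say whether libraries of a group came from separate animals or cultures, so p-values measure the spread between these libraries, which may be technical.

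The respiratory chain passes electrons from NADH through complex I, or from succinate through complex II, to ubiquinone, then through complex III and cytochrome c to complex IV, where oxygen is reduced. Complexes I, III and IV pump protons across the inner mitochondrial membrane, and ATP synthase uses the resulting gradient to make ATP. Most subunits are encoded in the nucleus and a small set in mitochondrial DNA, so complexes I, III and IV and ATP synthase are assembled from both, and complex II from nuclear subunits alone. In dendritic cells, strong activation is known for a shift of energy production towards glycolysis.

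Library totals ran from 41421718 to 61217861 counts. The targeted genes did not check the labels: Vav2 was at 265 to 325 CPM (counts scaled to library size, per 1e6) in the 6 KO-labelled libraries, against 65.0 to 72.7 CPM in the 6 WT libraries. Vav1 was also higher in the KO-labelled libraries in both states, and Vav3 without curdlan. The groups are therefore called KO-labelled throughout, and every direction below rests on those labels. The 4 groups were on 4 different lanes, and lane effects cannot be told apart from group effects. Dendritic cell markers were present in every group, with a summed level of 20141 to 27657 CPM in KO-labelled and 12248 to 13018 CPM in WT libraries. Library 4 of KO-labelled cells with curdlan stood apart, with 5.66% of its counts on mitochondrially encoded genes, against 2.78% to 3.98% in the other 11.

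The promoters of some members are shown because 48 members were lower together in unstimulated KO-labelled cells. RefSeq windows (GRCm38.p6) of 250 bases before to 50 after the transcription start were matched for 74 of 89 members and searched on both strands for the NRF1 motif (GCGCA, any base, then GCGC), the ETS motif CCGGAAG and the YY1 motif AANATGGC. NRF1, the ETS factor GABP and YY1 are known regulators of nuclear genes for mitochondrial proteins. Each motif was found in 19 members, or 25.7%. Over all 27025 genes of the table the shares were 5.19% for NRF1, 9.93% for ETS and 6.96% for YY1. The table was not limited to genes expressed in these cells, and the share over expressed genes alone is not given here. At least 1 motif was found in 48 members (64.9%), against 19.4% of all genes, and no member had matches to different motifs that shared bases. The motifs were found in 29.3% (NRF1), 22.0% (ETS) and 29.3% (YY1) of the 41 matched members that were lower in unstimulated KO-labelled cells. Among the 31 other tested members the shares were 22.6%, 32.3% and 22.6%. Below are the 100 bases before the start of 1 gene of each complex, all 5 lower in unstimulated KO-labelled cells and all holding an NRF1 or ETS match, with the matching letters in capitals.

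Ndufs6 (complex I, chr13:73328483-73328582, minus strand, NRF1): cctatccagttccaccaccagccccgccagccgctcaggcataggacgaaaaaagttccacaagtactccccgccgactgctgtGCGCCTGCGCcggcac

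Sdha (complex II, chr13:74350241-74350340, minus strand, NRF1): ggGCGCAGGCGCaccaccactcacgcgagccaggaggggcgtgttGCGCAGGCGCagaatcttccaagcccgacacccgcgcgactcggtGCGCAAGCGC

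Uqcr11 (complex III, chr10:80406822-80406921, minus strand, ETS): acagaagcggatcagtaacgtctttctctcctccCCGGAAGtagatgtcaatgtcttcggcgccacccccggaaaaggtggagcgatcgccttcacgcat

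Cox6a1 (complex IV, chr5:115348959-115349058, minus strand, ETS): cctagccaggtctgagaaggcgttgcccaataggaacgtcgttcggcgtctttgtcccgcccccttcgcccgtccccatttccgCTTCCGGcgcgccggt

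Atp5k (ATP synthase, chr5:108434400-108434499, minus strand, NRF1): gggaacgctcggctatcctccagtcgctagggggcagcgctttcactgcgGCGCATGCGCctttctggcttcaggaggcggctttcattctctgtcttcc

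Sdha held 3 NRF1 matches in this stretch, and the other 4 genes 1 motif match each. A match is a run of letters and not a shown binding site.

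The ubiquitous subunits were all expressed. The summed level of the members was 6570, 7884 and 7322 CPM in KO-labelled libraries with curdlan, 6859, 6657 and 6983 CPM in unstimulated KO-labelled libraries, 7878, 7705 and 7273 CPM in WT libraries with curdlan and 8620, 8425 and 8251 CPM in unstimulated WT libraries. The unstimulated WT libraries had the highest sums, above all 9 others. Per length, the highest level in each complex, as a mean of the 4 groups, was that of Atp5b in ATP synthase (457 CPM per kb), Cox4i1 in complex IV (418), Uqcrh in complex III (208), Ndufa1 in complex I (127) and Sdhd in complex II (126). Atp5b encodes the catalytic beta subunit, Cox4i1 a nuclear subunit of cytochrome c oxidase, Uqcrh the hinge protein, Ndufa1 a small accessory subunit and Sdhd a membrane anchor. Many of these genes have processed pseudogenes, and the handling of reads that match more than 1 place is not stated in the sources used.

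Without curdlan, subunits of all 5 complexes were lower in KO-labelled than in WT cells. Of 85 tested members, 48 were lower and 1 was higher (edgeR quasi-likelihood test, Benjamini-Hochberg adjusted p under 0.05 over all 18981 genes). Over all genes tested, 23.3% were lower and 21.1% higher, 44.4% in either direction. The median log2 fold change was -0.30 over the members and -0.01 over all tested genes. In 67 members every KO-labelled library lay below every WT library, and in 1 above, against 29.8% and 26.3% of all genes. In these bulk samples, fewer cells of a type and less RNA per cell cannot be told apart.

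Complex I had 18 of 36 subunits lower and none higher by edgeR or DESeq2, with folds of the 18 between -0.50 and -0.21 (log2). Of the 7 core subunits, which carry the redox centres, 6 were lower and Ndufs8 was not past the threshold (-0.05 ± 0.07 SE, adjusted p = 0.56 by edgeR). Ndufv1 (ENSMUSG00000037916, chr19:4007384-4012806), which binds the flavin that accepts electrons from NADH, had 51.2, 51.8 and 50.6 CPM in KO-labelled libraries, against 73.8, 73.7 and 70.0 CPM in WT libraries. The libraries of its groups did not overlap, and the log2 fold change was -0.50 ± 0.06 (SE, edgeR adjusted p = 2.29e-05). Ndufa9, an accessory subunit of the matrix arm, had 53.8, 50.1 and 53.2 CPM in KO-labelled libraries, against 73.8, 76.6 and 71.8 CPM in WT libraries. Its groups were likewise apart, with a log2 fold change of -0.50 ± 0.06 (SE, edgeR adjusted p = 3.06e-05). Ndufa10, another accessory subunit, had 61, 59.8 and 61.5 CPM in KO-labelled libraries, against 85.9, 88.3 and 84.3 CPM in WT libraries (log2 fold change -0.50, edgeR adjusted p = 4.18e-05). The accessory subunits as a group had 12 of 29 lower.

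In complex II, 3 of 4 subunits were lower. Sdhb, the iron-sulfur subunit, had 89.7, 85 and 85.2 CPM in KO-labelled libraries, against 112, 118 and 113 CPM in WT libraries. The groups did not overlap (log2 fold change -0.40 ± 0.06 SE, edgeR adjusted p = 0.000136). Sdha, the flavoprotein whose promoter is printed above, was lower by a similar amount (-0.35), as was the anchor Sdhc (-0.36). The anchor Sdhd differed by -0.22 and was not past the threshold (edgeR adjusted p = 0.0713).

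Complex III had 6 of 8 subunits lower. Uqcrc1, a core protein of the matrix side, had 122, 116 and 123 CPM in KO-labelled libraries, against 170, 173 and 164 CPM in WT libraries. The 6 libraries fell into separate ranges by genotype label, with a log2 fold change of -0.49 ± 0.06 (SE, edgeR adjusted p = 3.06e-05). Uqcr10, a small subunit, had the greatest fall of the complex, at -0.54 ± 0.11 (edgeR adjusted p = 0.00199). Uqcrfs1, the Rieske iron-sulfur protein, differed by -0.38 and was also past the threshold. Uqcrh and Uqcrq were not past the threshold, at -0.09 and -0.22.

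In complex IV, 6 of 11 ubiquitous subunits were lower. Ndufa4, first named as a complex I subunit and now assigned to complex IV, had 32.0, 42.5 and 34.3 CPM in KO-labelled libraries, against 56.5, 54.5 and 56.1 CPM in WT libraries. All KO-labelled libraries lay below the WT ones, with a log2 fold change of -0.62 ± 0.14 (SE, edgeR adjusted p = 0.00329). Cox4i1 had 299, 313 and 306 CPM in KO-labelled libraries, against 324, 294 and 297 CPM in WT libraries, and the groups overlapped. The other 5 lower subunits were Cox5b, Cox6a1, Cox6c, Cox7a2 and Cox7b, with log2 fold changes of -0.32, -0.31, -0.41, -0.41 and -0.50.

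ATP synthase had 12 of 15 subunits lower, among them all 5 of the F1 part that makes ATP (Atp5a1, Atp5b, Atp5c1, Atp5d and Atp5e). Atp5b (ENSMUSG00000025393, chr10:128083273-128090391) had 810, 712 and 781 CPM in KO-labelled libraries, against 998, 1132 and 1078 CPM in WT libraries. Its lowest WT library was above its highest KO-labelled one (log2 fold change -0.48 ± 0.08 SE, edgeR adjusted p = 0.0004). Atp5o, which joins F1 to the stator stalk, differed by -0.43 and was past the threshold. The 3 subunits not past it were Atp5g2, Atp5h and Atp5l, at -0.14, -0.14 and -0.13.

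Of the members that are not subunits, 3 of 7 were lower. Sdhaf3, an assembly factor of complex II, was at 0.874, 1.13 and 1.03 CPM in KO-labelled libraries, against 1.70, 1.88 and 1.64 CPM in WT libraries (log2 fold change -0.79 ± 0.17 SE, edgeR adjusted p = 0.00255). Atp5s, known as a coupling factor, and Atp5sl, known as an assembly component of complex I under the name Dmac2, had log2 fold changes of -0.72 and -0.59. Cell cycle genes, which report on dividing cells, were lower in 16 of 16 cases, with a median of -1.01. B cell markers were lower in 8 of 8 cases, with a median of -4.30. Their summed level, which differed less than this median, was 26.0 to 31.6 CPM in unstimulated KO-labelled and 79.3 to 92.9 CPM in unstimulated WT libraries. The part of these lists in the members' difference, like that of the macrophage, neutrophil and mast cell markers that were higher, was not tested. Leaving out any 1 library of the 2 groups left 37 to 50 members lower.

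**Figure D1:**
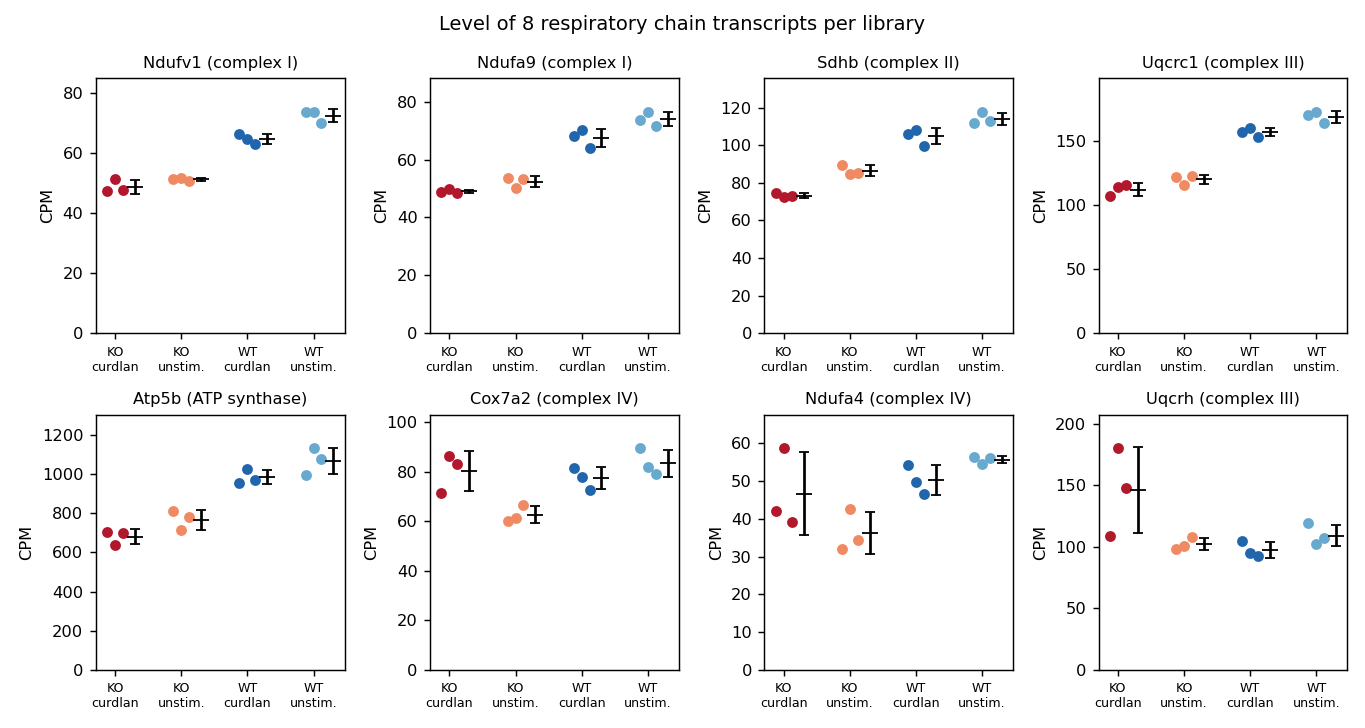
Level of 8 members in CPM (y axis, from 0) in each library of the 4 groups (x axis), with 3 points a group and the mean ± SD beside them. Ndufv1, Ndufa9, Sdhb, Uqcrc1 and Atp5b lie lower in all 6 KO-labelled libraries than in all 6 WT libraries, whereas Uqcrh is spread from 109 to 180 CPM in KO-labelled cells with curdlan.

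With curdlan, the members called between genotype labels went in both directions, at shares below those of all genes. KO-labelled cells were lower than WT cells in 19 members and higher in 14, where 26.8% and 24.7% of all genes were lower and higher, 51.4% in either direction. The members' median log2 fold change was 0.04, near that of all tested genes (0.01). Every KO-labelled library lay below every WT library in 22 members and above in 7, against 29.5% and 27.4% of all genes. Of the 19 lower members, 18 were also among the 48 lower without curdlan (18 of 19 and 18 of 48). The 2 comparisons share no library, but they come from the same fit, and same-numbered libraries of the 2 states may be paired. The overlap over all genes is not given here, so this overlap is not read as a trait of the members. No member was lower without and higher with curdlan. Sdhaf1 was past the threshold only in the comparison with curdlan (-0.62, edgeR adjusted p = 0.0124, against -0.42 and 0.0634 without curdlan).

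The 18 members lower in both states comprised 4 F1 subunits and Atp5o of ATP synthase, Sdha and Sdhb of complex II, Uqcrc1, Uqcrc2 and Uqcrfs1 of complex III, Ndufs1, Ndufv1, Ndufa9, Ndufa10 and Ndufb2 of complex I, and Atp5s, Atp5sl and Sdhaf3. No subunit of complex IV was among them. Atp5b had 704, 636 and 699 CPM in KO-labelled libraries with curdlan, against 957, 1024 and 969 CPM in WT libraries with curdlan. The ranges were far apart, with a log2 fold change of -0.53 ± 0.08 (SE, edgeR adjusted p = 0.00016). Sdhb had 74.4, 72.3 and 73.1 CPM in KO-labelled libraries, against 106, 108 and 99.9 CPM in WT libraries (log2 fold change -0.52 ± 0.06 SE, edgeR adjusted p = 1.84e-05). Uqcrc1 had 107, 114 and 116 CPM in KO-labelled libraries, against 157, 160 and 153 CPM in WT libraries (log2 fold change -0.48 ± 0.06 SE, edgeR adjusted p = 3.59e-05). Ndufa9 had 48.8, 49.7 and 48.6 CPM in KO-labelled libraries, against 68.2, 70.3 and 64.1 CPM in WT libraries (log2 fold change -0.46 ± 0.06 SE, edgeR adjusted p = 5.58e-05). In all 4 genes the KO-labelled libraries lay within a narrow band below the WT libraries. Atp5sl had 7.50, 6.97 and 6.26 CPM in KO-labelled libraries, against 13.8, 13.3 and 11.9 CPM in WT libraries, and its log2 fold change of -0.91 ± 0.09 (edgeR adjusted p = 7.86e-06) had the smallest p of the 85 tested members.

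The 14 members higher in KO-labelled cells with curdlan had short transcripts, of 419 to 763 bases. Uqcrh had 109, 180 and 148 CPM in KO-labelled libraries, against 105, 95.3 and 92.1 CPM in WT libraries. All KO-labelled libraries were above the WT ones, 1 of them by little (log2 fold change 0.58 ± 0.14 SE, edgeR adjusted p = 0.00413). Atp5l, subunit g of the membrane part of ATP synthase, had 72.3, 112 and 88.3 CPM in KO-labelled libraries, against 68.7, 62.9 and 57.3 CPM in WT libraries (log2 fold change 0.53 ± 0.13 SE, edgeR adjusted p = 0.00515). Ndufa2, an accessory subunit of the NADH-oxidising module, had 61.9, 90.2 and 76.7 CPM in KO-labelled libraries, against 58.9, 53.1 and 51.2 CPM in WT libraries (log2 fold change 0.49 ± 0.12 SE, edgeR adjusted p = 0.006). Cox4i1 had 320, 444 and 358 CPM in KO-labelled libraries, against 296, 274 and 260 CPM in WT libraries (log2 fold change 0.43 ± 0.11 SE, edgeR adjusted p = 0.00426). In each of these 4 genes library 4 was the highest and library 2 the lowest of the KO-labelled libraries. Without library 4 of the KO-labelled cells with curdlan, 6 members were higher and 21 lower. Without library 2, 25 were higher and 18 lower. Without WT library 2 or 4, the higher members numbered 5 and 6. With libraries scaled by size alone, 2 members were higher and 36 lower, and the median of all tested genes was then -0.24, so that the members' median of -0.20 stood 0.03 above it.

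In the authors' deposited table of the same comparison, 87 members had an adjusted p, of which 7 were higher and 17 lower at the same threshold. Of all genes with an adjusted p there, 17.2% of genes were higher and 19.9% lower. The authors' deposited table gave log2 fold changes of -0.53 for Atp5b and 0.56 for Uqcrh.

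**Figure D2:**
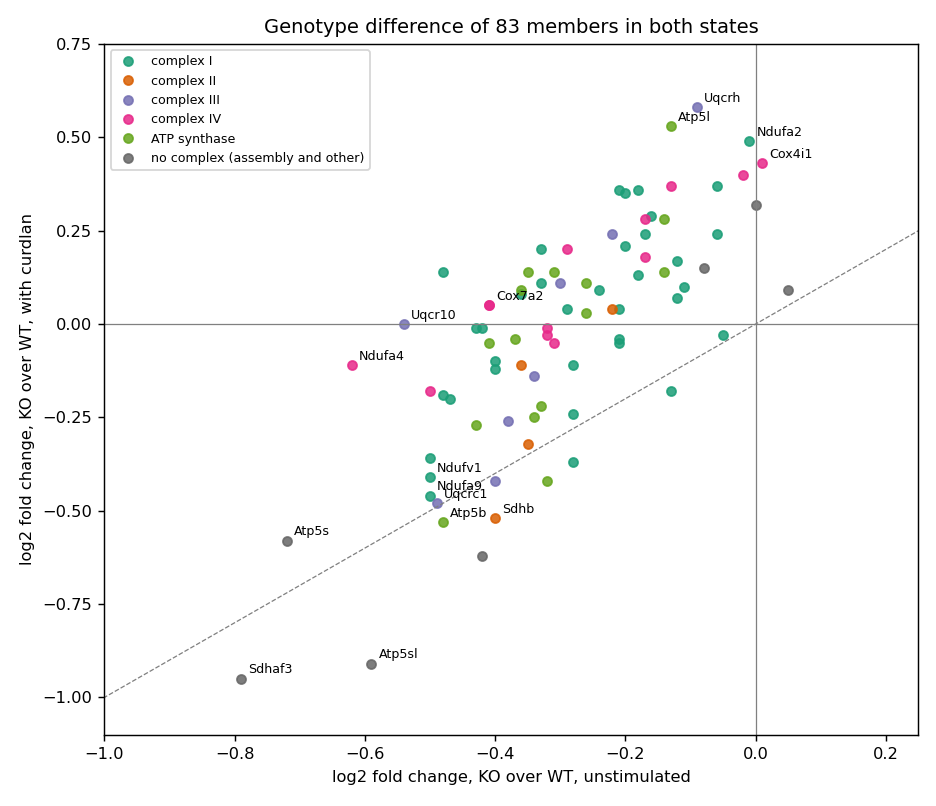
Log2 fold change of KO-labelled over WT cells without curdlan (x axis) and with curdlan (y axis) for 83 members, coloured by complex, with the diagonal dashed. The restricted isoforms Cox4i2 and Cox6a2 lie beyond the axes. Most points lie left of 0 on the x axis and above the diagonal, and those low on both axes include Atp5b, Sdhb, Uqcrc1, Ndufa9, Atp5sl and Sdhaf3.

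The position of a member between these patterns went with its transcript length, taken as the median length of the principal GENCODE M21 transcripts. The 43 tested members of up to 861 bases were 14 higher and 1 lower in KO-labelled cells with curdlan, and the 42 longer members 0 higher and 18 lower. Without curdlan, 17 of the shorter and 31 of the longer members were lower. Across the 85 members, Spearman's rho between length and log2 fold change was -0.59 with curdlan and -0.33 without, given as a description across genes of the same libraries. Over all 17588 tested genes with a length, rho was -0.16 and 0.07. Other genes showed part of this pattern: with curdlan, 791 genes of 500 to 700 bases had a median of 0.19, against 0.20 for the 27 members of that class. In the class of 2000 to 3000 bases, other genes had a median of -0.05 and the 10 members -0.34. The 6 members of up to 500 bases did not follow the relation to length, with a median of -0.01, against 0.24 for other genes of that class. Without curdlan the members lay below other genes of their length in every class. Examples are -0.35 against -0.01 up to 500 bases, -0.17 against -0.04 from 500 to 700 bases and -0.42 against -0.05 from 1500 to 2000 bases. When each library's smooth trend over length was removed, 7 members were higher and 26 lower with curdlan, of which 7 and 7 were among the shorter ones. Without curdlan 1 was higher and 47 lower after this step. What the relation to length comes from was not tested.

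**Figure D3:**
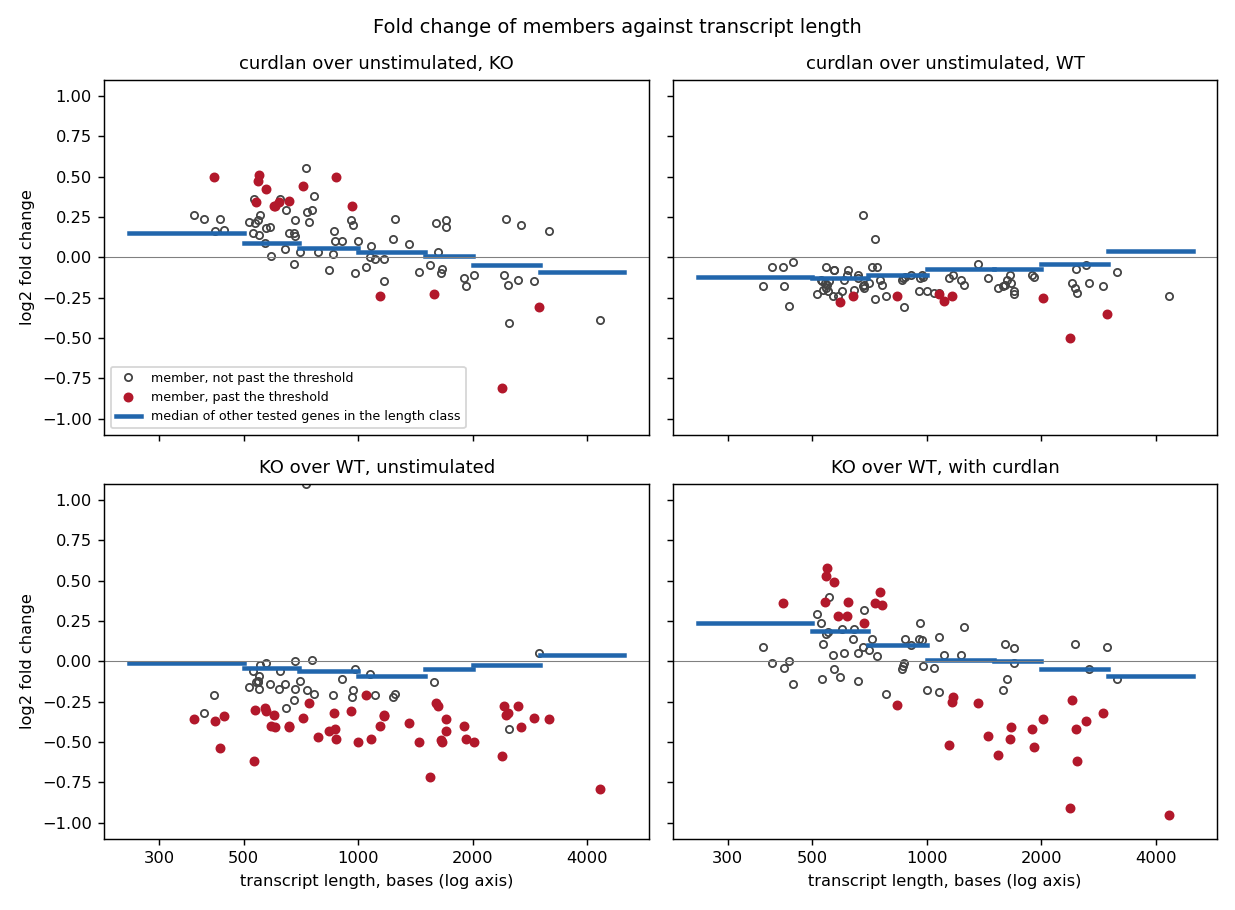
Log2 fold change (y axis) of the tested members against transcript length in bases (log x axis) in 4 comparisons, filled where past the threshold, with the median of other tested genes in 7 length classes as lines. Cox4i2 and Cox6a2 lie beyond the y axis in both genotype panels. The points slope downwards for curdlan over unstimulated in KO-labelled cells and for the genotype comparison with curdlan, and in unstimulated cells 80 of the 85 fold changes are below 0.

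Library by library, the median log2 deviation of the members from each gene's mean over the 12 libraries was -0.16, 0.14 and 0.04 in KO-labelled cells with curdlan (libraries 2, 4 and 5). It was -0.15, -0.14 and -0.11 in unstimulated KO-labelled cells, 0.07, -0.03 and -0.09 in WT cells with curdlan, and 0.23, 0.12 and 0.11 in unstimulated WT cells. The unstimulated groups were thus apart, whereas KO-labelled cells with curdlan spanned both signs. In KO-labelled library 4 with curdlan the shorter members deviated by 0.32 and the longer by -0.06. Other tested genes of up to 1000 bases deviated by 0.13 there, and those over 3000 bases by -0.10.

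**Figure D4:**
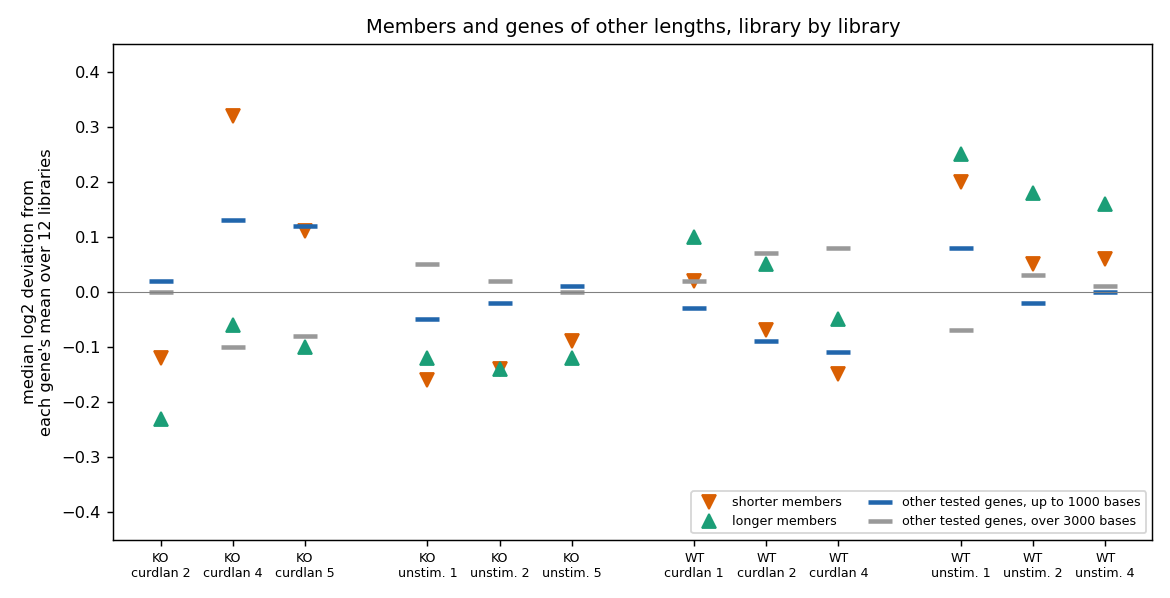
Median log2 deviation from each gene's mean over the 12 libraries (y axis) for the 43 shorter and 42 longer members (triangles) and for other tested genes of up to 1000 and over 3000 bases (short horizontal bars), by library (x axis). Longer members lie below 0 in all 6 KO-labelled libraries, and shorter members range from -0.12 to 0.32 in KO-labelled cells with curdlan.

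In KO-labelled cells 12 members were higher and 4 lower after curdlan, where 14.0% and 14.6% of all genes were higher and lower, 28.6% in either direction. The median was 0.15 over members and 0.00 over all tested genes. Curdlan libraries lay wholly above unstimulated ones in 18 members and wholly below in 10, against 18.6% and 19.5% of all genes. The 12 included Uqcrh (0.51), Ndufa1 (0.50), Ndufa5 (0.50), Atp5l (0.47), Atp5g3 (0.44), Ndufa2 (0.42), Cox7a2 (0.35) and Cox7c (0.34). Ndufa5 is an accessory subunit of complex I, and Atp5g3 encodes a precursor of the c ring of ATP synthase. Ndufa1 had 51.7, 78.8 and 63.0 CPM with curdlan, against 43.4, 45.5 and 47.7 CPM in unstimulated KO-labelled cells (log2 fold change 0.50 ± 0.13 SE, edgeR adjusted p = 0.0138). Its curdlan libraries were all higher, and the highest was library 4. The 4 lower members were Atp5sl (-0.81), Sdhaf2 (-0.31), Sdhb (-0.24) and Ndufv3 (-0.23), where Sdhaf2 is the factor that attaches flavin to Sdha. Atp5sl had 7.50, 6.97 and 6.26 CPM with curdlan, against 12, 13 and 11.4 CPM without (log2 fold change -0.81 ± 0.09 SE, edgeR adjusted p = 7.11e-05).

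With the replicate number as a block, 8 members were higher and 6 lower after curdlan in KO-labelled cells, with a median of 0.07. Only numbers 2 and 5 occur in both states of these cells. Curdlan library 4 and unstimulated library 1 thus add nothing to this blocked comparison, and the fit had 3 residual degrees of freedom. The count of 12 rested on single libraries. It was 1 without library 4 of the curdlan group or without library 1 of the unstimulated group, 7 without curdlan library 5 and without unstimulated library 2 or 5, and 35 without curdlan library 2. It was 1 in a fit of the 2 groups alone and 0 with libraries scaled by size alone, where 23 members were lower and the median of all tested genes was -0.20.

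In WT cells no member was higher after curdlan and 9 were lower, where 11.4% and 8.4% of all genes were higher and lower, 19.8% in either direction. No member was higher at an unadjusted p under 0.05, nor by DESeq2. The median was -0.16 over members and -0.03 over all tested genes. Curdlan libraries lay wholly below unstimulated ones in 43 members and above in 0, against 23.4% and 21.1% of all genes. Atp5sl was again the most changed, with 13.8, 13.3 and 11.9 CPM after curdlan, against 18.3, 17.9 and 18.8 CPM without (log2 fold change -0.50 ± 0.09 SE, edgeR adjusted p = 0.00172). Ndufa6, an accessory subunit of the LYR family, had 51.1, 49.0 and 48.9 CPM after curdlan, against 62.1, 59.7 and 59.8 CPM without (log2 fold change -0.28 ± 0.06 SE, edgeR adjusted p = 0.00478). Both had curdlan libraries wholly below the unstimulated ones. The other 7 were Sdhaf2 (-0.35), Ndufa12 (-0.27), Ndufa10 (-0.25), Atp5c1 (-0.24), Atp5h (-0.24), Atp5o (-0.24) and Cox7a2l (-0.23). With the replicate number as a block, 39 members were lower and 0 higher. Leaving out single libraries gave 2 to 7 lower members, with 2 without curdlan library 4 and 5 without curdlan library 2 or any of the 3 unstimulated libraries.

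The responses of the 2 genotype labels were then compared directly, as the KO-labelled minus the WT response. Cox7a2 alone was past the threshold, at 0.46, where 1.61% of all genes were higher and 3.6% lower, 5.21% in either direction. Cox7a2, the ubiquitous form of subunit 7a of complex IV, had 71.3, 86.5 and 83.0 CPM with curdlan, against 60.2, 61.5 and 66.5 CPM without, in KO-labelled cells. In WT cells it had 81.5, 78.0 and 72.8 CPM with curdlan, against 89.5, 81.9 and 79.0 CPM without. Curdlan libraries were wholly higher in KO-labelled cells, and the ranges overlapped in WT cells. The edgeR adjusted p of the difference was 0.0449. The members' median difference was 0.30, against 0.00 over all tested genes, and 48 members were higher and 1 lower at an unadjusted p under 0.05. The share of all genes at that unadjusted p is not given here, so this count is not read as a trait of the members. DESeq2 called 20 members higher, where 4.78% of all genes were higher and 6.71% lower. The fit with the replicate block called 16 higher, where 5.58% of all genes were higher and 8.49% lower. In that fit the KO-labelled response rests on the 2 replicate numbers found in both states. After removal of the length trend the median was 0.15 with 0 members called. Without library 2 of the KO-labelled curdlan group, 39 members were higher, where 6.87% of all genes were higher and 7.86% lower. Without any 1 of the other 11 libraries 0 members were higher.

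Subunits that exist as alternative isoforms were read one set at a time. For subunit 4, Cox4i1 was at 495, 405, 367 and 403 CPM per kb in KO-labelled cells with curdlan, unstimulated KO-labelled cells, WT cells with curdlan and unstimulated WT cells. Its isoform Cox4i2, known from lung and hypoxic cells, reached at most 0.57 CPM in any library, with 49, 40, 21 and 24 summed counts in the same order of groups. It was higher in KO-labelled cells with curdlan (1.54 ± 0.48 SE, edgeR adjusted p = 0.018), with 3 of 14 alternative fits not past the threshold. Cox6a2, the striated muscle isoform of subunit 6a, had 0.395, 0.581 and 0.860 CPM in KO-labelled libraries with curdlan, against 0.254, 0.124 and 0.134 CPM in WT libraries with curdlan. Without curdlan it had 0.815, 0.361 and 0.659 CPM in KO-labelled libraries, against 0.171, 0.167 and 0.0864 CPM in WT libraries. These rest on 71, 92, 26 and 27 summed counts in KO-labelled cells with and without curdlan and WT cells with and without curdlan. Its log2 fold changes were 1.8 ± 0.42 with and 2.10 ± 0.40 without curdlan (edgeR adjusted p = 0.00356 and 0.00112). Cox4i2 and Cox6a2 passed the filter on low counts through the KO-labelled libraries, and a fit of the WT groups alone tested 83 members, against 85. Their higher level in KO-labelled cells is therefore not independent of the filter. Both are among the 14 members higher with curdlan, and Cox6a2 is the only member higher without it. The ubiquitous Cox6a1 was at 153 to 205 CPM.

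The other restricted isoforms were rare. Cox7a1 lay between 1.01 and 1.71 CPM and Cox6b2 between 0.618 and 1.51 CPM, and neither passed the threshold in any comparison. The ubiquitous Cox6b1 was at 139 to 211 CPM and higher in KO-labelled cells with curdlan (0.28, edgeR adjusted p = 0.0271). Ndufa4l2 and Cox7b2 had at most 11 and 7 summed counts in a group. Cox8b and Cox8c had no count in any library, which allows a level of up to 0.0428 to 0.083 CPM by a floor of 3 counts a library, while Cox8a was at 182 to 254 CPM. The floor covers counting error only. Of the 3 genes for the c ring, whose mature protein is the same, Atp5g3 had the highest level per length and Atp5g1 the lowest in every group. Per kb, Atp5g3 was at 367, 271, 332 and 347 CPM in KO-labelled cells with curdlan, unstimulated KO-labelled cells, WT cells with curdlan and unstimulated WT cells, and Atp5g1 at 22.0, 19.1, 22.7 and 25.4 CPM. Atp5g1 and Atp5g3 were lower in unstimulated KO-labelled cells (-0.41 and -0.35), and Atp5g2 was higher in KO-labelled cells with curdlan (0.28).

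The 13 chain subunits encoded in mitochondrial DNA followed another pattern than the nuclear members after curdlan. Of them, 13 of 13 were higher in KO-labelled cells, with a median of 0.78, and 2 of 13 in WT cells, with a median of 0.23. Over all genes, 14.0% and 11.4% were higher. Their summed level was 34522 to 65316 CPM in KO-labelled cells with curdlan and 28198 to 32188 CPM in unstimulated ones. It was 31313 to 33895 CPM in WT cells with curdlan and 27396 to 32108 CPM in unstimulated ones. As a share of raw counts, KO-labelled libraries had 3.01%, 5.66% and 3.98% with curdlan, against 2.78%, 3.2% and 3.2% without. By that share, curdlan library 2 lay within the unstimulated range. mt-Nd1, a subunit of complex I, had 1445, 2866 and 1880 CPM in KO-labelled libraries with curdlan, against 904, 1167 and 1142 CPM without (log2 fold change 0.95 ± 0.19 SE, edgeR adjusted p = 0.00357). The curdlan libraries were all higher, with library 4 far above the other 2. Without that library 9 of 13 were higher, with a median of 0.49, and without library 1 of the unstimulated group 6 were. In WT cells, leaving out any 1 library left 0 higher, and the replicate block gave 8. Between the genotype labels, 5 were higher in KO-labelled cells with curdlan, where 24.7% of all genes were. Without curdlan 2 were higher and 1 lower, where 21.1% and 23.3% of all genes were. With curdlan the 5 became 3 without KO-labelled library 4 or WT library 2 or 4, and 10 without KO-labelled library 2. By edgeR and by DESeq2, none was lower with curdlan.

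Genes that serve the chain were also compared between genotype labels, where 23.3% of all genes were lower and 21.1% higher without curdlan, and 26.8% and 24.7% with curdlan. Of 42 tested assembly factors, which include the member Atp5sl, 21 were lower and 0 higher by edgeR (20 and 2 by DESeq2, with 25 at an unadjusted p under 0.05 in either direction) in unstimulated KO-labelled cells, and 19 lower and 6 higher with curdlan. Taco1, an activator of the synthesis of a complex IV subunit in mitochondria, had a log2 fold change of -0.91 in both states (edgeR adjusted p = 5.47e-06 without and 8.21e-06 with curdlan). Bcs1l, which inserts the Rieske protein into complex III, had -0.83 without and -0.82 with curdlan. After curdlan, 13 of 42 were lower and 3 higher in KO-labelled cells, where 14.6% and 14.0% of all genes were. In WT cells 15 were lower and 2 higher, where 8.4% and 11.4% of all genes were. Leaving out single libraries gave 9 to 12 lower in KO-labelled cells and 4 to 10 in WT cells. Of 17 genes for electron carriers and other entry points, 9 were lower without and 8 with curdlan in KO-labelled cells, with 0 and 2 higher. The ubiquinone synthesis gene Coq3 had -0.86 without and -0.87 with curdlan. Of 8 tested genes for the ATP synthase inhibitor, the ADP/ATP and phosphate carriers and uncoupling protein, 4 were lower without curdlan, among them Slc25a4 (-0.48) and Ucp2 (-0.48), and 3 were lower and 1 higher with it.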

How the data were processed

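RNA was extracted with TRIzol and column purification and libraries were made with the TruSeq RNA kit, per the labels' protocols; the kit does not keep strand, so overlapping antisense genes cannot be told apart. The deposited values are raw counts, whole numbers for each gene in each library. TopHat2, SAMtools 1.2, featureCounts 1.4.6 and DESeq2 1.8.2 appear among the tools in the submitters' processing notes. Build, annotation and the handling of multiply matching reads: not given in the sources used. The authors' deposited table of KO against WT with curdlan holds log2 fold changes, p-values and adjusted p-values, per the file headers; 24 columns of per-library values in the authors' tables were not used.

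Groups follow the labels. Members and gene lists were chosen with earlier results of these data known. The named members are up to 8 rises and 8 falls by size per comparison among those past the threshold, the member with the highest level per length in each complex, isoform sets, and up to 4 genes per other list; further members were added to describe a complex. Genes were filtered with filterByExpr, libraries scaled by TMM, and all 12 fitted as 4 group means with edgeR 4.0.16 (two-sided quasi-likelihood tests in R 4.3.3). Benjamini-Hochberg adjustment ran over all 18981 genes, and the threshold was 0.05. CPM uses effective library sizes, and the SE of a log2 fold change comes from the F statistic. The fit was tested on simulated counts with the same spread for every gene, no lane or pairing effects and changes in a single group. That test does not cover the lane or pairing structure of these libraries. Alternatives were DESeq2 1.42.0, other scalings, no filter, 2 groups alone, each library left out, removal of the length trend and a replicate block. The lists cover mitochondrially encoded subunits, assembly factors, electron carriers, ATP synthase inhibitor and carriers, the TCA cycle, biogenesis regulators, isoforms, mitochondrial and cytosolic ribosomal proteins, the cell cycle and 7 sets of cell markers.

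Libraries of the same group differed beyond sampling error, with a chi-square per degree of freedom of 9.92 to 84.1. In WT, same-numbered libraries of the 2 states deviated together (r = 0.69, 0.53 and 0.21), by the numbers of the library names, which was taken as a pairing. WT curdlan library 4 went as closely with unstimulated library 2 (r = 0.22) as with its own number (0.21). KO shares 2 numbers between states (r = 0.42 and 0.84). KO curdlan library 2 had r = 0.44 with unstimulated library 1, against 0.42 with its own number. The pairing is therefore clear for some libraries only. The authors' comparison table numbers the WT curdlan columns differently, and with those numbers r was -0.28, -0.46 and 0.22.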

Additional observations from a re-analysis of the deposited data

Results flagged for a closer look

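Cox7a2 is the member whose response to curdlan differed between the genotype labels, by 0.46 on the log2 scale in KO-labelled minus WT cells (edgeR adjusted p = 0.0449). Its own responses were 0.35 in KO-labelled and -0.11 in WT cells. The difference was past the threshold in 5 of 20 alternative fits and had the same direction in all 20, with a highest adjusted p of 0.122.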

How the results depend on the processing

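The 46 results for named members were picked for passing the threshold in the main fit, so a kept direction was likely beforehand. Of their 670 alternative values, 545 stayed past the threshold, 125 did not and 0 changed direction. The median over all tested members did change sign in some fits, as given below. Scaling by library size alone gave, higher and lower, 0 and 23 members (median -0.04) for curdlan in KO-labelled cells, 55 lower (-0.30; 6123 genes in all) for curdlan in WT, 0 higher for the difference, 74 lower (-0.48) for the genotypes without curdlan and 2 and 36 (-0.20) with curdlan. The median of all genes was then -0.17 to -0.24 in the 4 comparisons other than the difference, against -0.03 to 0.01 with TMM. Relative to that median, the members stood at 0.16, -0.13, -0.29 and 0.03. A fit of 2 groups alone gave 1 and 2 members (3142 genes) for curdlan in KO-labelled cells, 15 lower in WT and 7 higher for the genotypes with curdlan. Removing the length trend gave medians of 0.06 (curdlan in KO-labelled cells), 0.15 (difference) and -0.06 (genotypes with curdlan), with 5 lower in WT, 0 higher in the difference and 7 higher with curdlan. DESeq2 gave 20 higher in the difference (2180 genes). Upper-quartile scaling gave 15 lower in WT and 3 higher in the difference, and no filter 5 and 0. The cause of these shifts was not tested.

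The replicate block gave 39 lower in WT (7276 genes) and 16 higher in the difference (2671 genes). It gave a median of 0.07 over members for curdlan in KO-labelled cells, against 0.15 without the block. In KO-labelled cells this block rests on 2 pairs, and the fit had 3 residual degrees of freedom. For the genotypes another block joined equal numbers across the genotype labels, a link that the labels do not state, with 5 residual degrees of freedom. That block gave 2 higher without curdlan. The blocks moved no other count of members by over 1.5 times. A block with the WT numbers of the authors' table, added after the data were seen, gave 0 higher and 2 lower for curdlan in KO-labelled cells, 16 lower in WT and 0 in the difference.

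Leaving out each library gave these ranges. Curdlan in KO-labelled cells had 1 to 35 higher, 2 to 5 lower, a median of 0.07 to 0.23 and 3490 to 6074 genes in all. Curdlan in WT had 2 to 7 lower, -0.20 to -0.12 and 2170 to 3122 genes. The difference had 0 to 39 higher, 0.24 to 0.36 and 366 to 2837 genes. Genotypes without curdlan had 1 to 2 higher, 37 to 50 lower and -0.33 to -0.27, and with curdlan 5 to 25 higher, 16 to 21 lower and -0.05 to 0.11. Counts of few reads limit Cox4i2, Cox6a2, Sdhaf3 and Atp5s.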

Other observations

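Other lists of nuclear genes for mitochondrial proteins were compared between genotype labels, where 23.3% of all genes were lower without and 26.8% with curdlan. Of 75 tested mitochondrial ribosomal proteins, which translate the mitochondrially encoded subunits, 48 were lower and 0 higher without curdlan (edgeR, median -0.35), and 30 were lower and 4 higher with curdlan (median -0.14). Mrps27 had log2 fold changes of -0.75 without and -0.98 with curdlan, and Mrps35 of -0.84 and -0.69. Of 27 genes of the TCA cycle and pyruvate dehydrogenase, 18 were lower and 3 higher without curdlan, and 15 lower and 4 higher with it. Pcx, which makes oxaloacetate from pyruvate, had -1.18 without and -1.99 with curdlan, and Pdk3, a kinase that inhibits pyruvate dehydrogenase, 1.23 and 1.12. Of 23 regulators of mitochondrial biogenesis, 10 were lower and 3 higher without curdlan, and 9 lower and 3 higher with it. The coactivator Ppargc1b had -0.83 without and -0.99 with curdlan. It was also lower after curdlan in KO-labelled cells (-1.29, edgeR adjusted p = 0.000859) and in WT cells (-1.13, edgeR adjusted p = 0.00139).

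After curdlan, 14.0% of all genes were higher and 14.6% lower in KO-labelled cells, and 11.4% and 8.4% in WT cells. The mitochondrial ribosomal proteins were 6 higher and 14 lower in KO-labelled cells and 1 higher and 23 lower in WT cells. In WT cells the 23 became 2 to 21 when single libraries were left out, with 2 without curdlan library 4. The TCA list was 0 higher and 7 lower in KO-labelled cells and 0 higher and 6 lower in WT cells, and without curdlan library 4 or unstimulated library 1 of the KO-labelled group its 7 became 1. Leaving out single WT libraries made the 6 lower genes 3 or 4. The 79 cytosolic ribosomal protein genes were 16 higher and 0 lower after curdlan in KO-labelled cells and 0 higher and 6 lower in WT cells. In KO-labelled cells the 16 became 46 without curdlan library 2, 1 without curdlan library 4 or unstimulated library 1, 5 without curdlan library 5 or unstimulated library 2, and 7 without unstimulated library 5. In WT cells the 6 became 0 to 5 when single libraries were left out, and 56 with the replicate block. Between genotype labels 67 of the 79 were higher and 0 lower with curdlan, and 7 were higher and 4 lower without. With libraries scaled by size alone, these were 23 higher and 8 lower with curdlan, and 2 higher and 31 lower without.

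The isoform list of 18 tested genes, which overlaps the members, was 1 higher and 6 lower in unstimulated KO-labelled cells and 6 higher and 0 lower with curdlan. AA467197, a small mitochondrial protein listed there, was higher after curdlan in KO-labelled cells (0.73, edgeR adjusted p = 0.0195). The cell cycle list was lower in 15 of 16 genes in KO-labelled cells with curdlan. Between genotype labels, without and with curdlan, dendritic cell markers were 7 and 7 higher and 2 and 3 lower of 12, macrophage markers 10 and 9 higher of 12, neutrophil markers 10 and 10 of 12, mast cell and basophil markers 7 and 7 of 8, erythroid and megakaryocyte markers 3 and 3 of 5, and T and NK cell markers 1 and 2 of 5. B cell markers were lower in 8 of 8 genes in both states.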
